A study of Mus musculus with 18 samples.

Results

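A set of 10 regulators that act in the choice between the B cell and the plasma cell (PC) state was followed in purified splenic B cells with and without Zbtb24, before and during LPS stimulation. They were taken by name, as Prdm1, Irf4, Pou2af1, Bach2, Bcl6, Pax5, Ebf1, Irf8, Spib and Foxo1, and 10 of 10 were found among the 16545 genes of the expression table. Pou2af1 encodes a coactivator of octamer-binding factors, and the others encode transcription factors that bind DNA. The 18 libraries fall into 6 groups of 3, which are control and Zbtb24 B-CKO (B-CKO) cells at 0 h, 24 h and 48 h of LPS, labelled as days 0, 1 and 2. LPS, from the outer membrane of Gram-negative bacteria, signals through TLR4 on B cells and can lead them to secrete antibody. B-CKO mice carry Zbtb24 loxp/loxp and a Cre allele expressed in the B lineage, so that exon 2 of Zbtb24, which holds the translation start, is deleted in cells that express Cre. The labels call the other group CON. The methods name littermates with the Cre allele and intact Zbtb24 as controls unless otherwise indicated, on the same C57BL/6 background. Age, sex and LPS dose are not given for these libraries. By the methods each replicate of splenic B cells came from 1 mouse. P-values measure the spread between the libraries of a group. At 0 h this spread includes a part shared by same-numbered libraries of the 2 genotypes. The labels number the libraries 1 to 3 within each group and do not say whether a number marks the same mouse at all 3 times. The main tests did not pair libraries by number.

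In mature B cells, Pax5 and Ebf1 maintain B cell identity, Foxo1 maintains a program of homing and quiescence, and Bach2 and Bcl6 repress Prdm1, which encodes the PC regulator BLIMP1. Irf8 and Spib act in the same direction as the B cell regulators, and Irf4 at high dose promotes PC differentiation. BLIMP1 in turn represses Pax5, Bcl6 and Spib, so that each side of the network holds the other down.

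The libraries were checked for their labels first. Zbtb24 was between 37.1 and 49.6 FPKM (fragments scaled to transcript length and to library size) in control and between 10.5 and 14.3 FPKM in B-CKO cells at 0 h. With LPS the gap was smaller, with means of 17.6 and 10.9 FPKM at 24 h (log2 difference -0.64 ± 0.08) and of 15.2 and 10.4 FPKM at 48 h (-0.50 ± 0.10). All B-CKO libraries lay below all control libraries at each of the 3 times, and the limma adjusted p was 0.120, 0.0586 and 0.267 (0.0476 at 0 h and 0.00278 at 24 h when genes with a mean under 1 FPKM were left out). Zbtb24 also passed at 0 h in a single fit of 18 libraries (adjusted p = 8.2e-06, limma). At 24 h it also passed with a pseudocount of 0.1 (adjusted p = 0.0317) and in TPM (0.0413). Cdca7, a direct ZBTB24 target, was 3.96-fold lower in B-CKO cells at 24 h (adjusted p = 3.6e-05, limma) and 4.28-fold lower at 48 h (adjusted p = 0.00589). Its 24 h call was lost without the number 3 pair (log2 difference -1.95, adjusted p = 0.105). The 48 h call was lost without B-CKO replicate 1 (adjusted p = 0.0561), B-CKO replicate 2 (0.0691), control replicate 1 (0.0833) or any number (0.0583 to 0.648), while the log2 difference stayed between -1.97 and -2.08. The labels do not say whether the control mice carry Cre, so the part of the Cre allele in any genotype difference was not tested. The 6 B cell markers summed to between 1954 and 5248 FPKM in every group. The 9 T cell markers summed to at most 16.1 FPKM, the 7 myeloid markers to at most 9.94 FPKM, the 4 plasmacytoid dendritic markers to at most 11.8 FPKM and the 3 NK markers to at most 2.35 FPKM, and Clec9a, Ncr1, Gzma, S100a8 and S100a9 were at 0 in 1 or more LPS groups. All 9 T cell markers fell by 24 h in each genotype, from sums of at least 7.62 FPKM at 0 h to at most 3.17 FPKM at 24 h. The NK sums fell to at most 0.14 FPKM at 24 h. The 5 erythroid markers reached higher sums at 0 h, at 10.9 to 30.2 FPKM in control and 9 to 52.8 FPKM in B-CKO libraries, and summed to between 7.51 and 16.3 FPKM with LPS. The part of these other cell types in the changes from 0 h was not tested. The conventional dendritic cell list rose to between 23.7 and 32.6 FPKM at 48 h, nearly all of it from a single gene, Flt3 (23.2 to 31.9 FPKM), while Xcr1, Clec9a and Zbtb46 had group means under 1 FPKM. The immediate early genes were very high at 0 h, with Fos at 344 to 444 FPKM against at most 1.81 FPKM after LPS, and 9 of 9 fell between 0 h and 24 h in control cells. Handling of the cells before lysis, culture and LPS therefore cannot be told apart in any comparison with 0 h. Relative depth, from the steps between low values of 14 genes, was 0.879 to 0.929 at 0 h and 1.01 to 1.08 with LPS.

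Prdm1 was the lowest of the 10 regulators at 0 h and rose in both steps. In control cells its level was 1.55, 2.89 and 3.79 FPKM at 0 h, 7.66, 5.35 and 8.02 FPKM at 24 h, and 14.7, 12.3 and 22.2 FPKM at 48 h. In B-CKO cells it was 1.41, 3.44 and 3.10 FPKM, then 6.17, 5.87 and 6.26 FPKM, then 16.9, 18.3 and 17.6 FPKM. No 2 successive times overlapped in either genotype. The mean rose 2.56-fold by 24 h in control cells (log2 change 1.13 ± 0.26 SE, adjusted p = 0.0108) and 2.30-fold in B-CKO cells (1.01 ± 0.24, adjusted p = 0.00974). From 24 h to 48 h it rose by a further 2.35-fold in control cells (1.10 ± 0.22, adjusted p = 0.00701) and by 2.88-fold in B-CKO cells (1.39 ± 0.05, adjusted p = 8.8e-06). The number 1 libraries were the lowest at 0 h in both genotypes, and at 48 h the control libraries spread 1.80-fold from lowest to highest against 1.08-fold in B-CKO cells.

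The 250 bases before the Prdm1 start in the RefSeq promoter table, an internal one that is not the most upstream of the annotated locus (GRCm38.p6, chr10:44458749-44458998, minus strand) are shown because Prdm1 is the gene on which the repressors of the network act. RefSeq is the source of the sequence, and capitals mark an AP-1 element (TGANTCA) at -48 to -42 and a FOXO element (GTAAACA) at -231 to -225 from the start, both found by a search of both strands.
Prdm1: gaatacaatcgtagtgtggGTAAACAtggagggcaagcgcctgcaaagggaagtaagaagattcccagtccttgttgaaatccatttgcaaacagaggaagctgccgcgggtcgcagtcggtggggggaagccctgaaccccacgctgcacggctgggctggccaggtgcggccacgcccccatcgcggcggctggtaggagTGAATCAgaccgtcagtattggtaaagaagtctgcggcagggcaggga
AP-1 is the element to which BACH2 with a small MAF protein and BATF with JUN proteins can bind, and FOXO1 binds the second. Of all 16526 promoter windows of 300 bases searched, 5.92% held the AP-1 letters and 2.61% the FOXO letters.

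Irf4 went against the direction of Prdm1. IRF4 is an interferon regulatory factor that, with PU.1, SPIB or BATF as partner, serves B cell activation and, at higher levels, PC differentiation. In control cells Irf4 was 118, 263 and 262 FPKM at 0 h, 62.7, 66.2 and 63.4 FPKM at 24 h, and 59.1, 53.7 and 65.9 FPKM at 48 h. The B-CKO libraries held 119, 254 and 266 FPKM, then 62.7, 67.3 and 60.5 FPKM, then 54.8, 58.9 and 52.4 FPKM. The mean fell between 0 h and 24 h, to a level 3.35-fold lower in control cells (log2 change -1.64 ± 0.31, adjusted p = 0.00448) and 3.36-fold lower in B-CKO cells (-1.65 ± 0.30, adjusted p = 0.00338). The number 1 libraries at 0 h carried less than the other 2 in both genotypes, and even they lay above every LPS library. Between 24 h and 48 h the control libraries overlapped (-0.11 ± 0.07, adjusted p = 0.280), whereas Irf4 fell slightly in B-CKO cells (-0.19 ± 0.06, adjusted p = 0.0284). That call was lost with median ratio scaling (adjusted p = 0.0586) and without B-CKO 24 h replicate 1 or 2 or 48 h replicate 1 or 3 (adjusted p = 0.0716 to 0.0964), and without control 48 h replicate 3 the control cells also passed (-0.18, adjusted p = 0.0387).

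Pou2af1 encodes OCA-B, which works with OCT1 and OCT2 at immunoglobulin promoters. Its control values were 268, 245 and 181 FPKM at 0 h, 208, 179 and 207 FPKM at 24 h, and 350, 317 and 394 FPKM at 48 h. In B-CKO cells the values were 297, 332 and 242 FPKM, then 191, 182 and 193 FPKM, then 366, 368 and 397 FPKM. The low point was 24 h, and all 48 h libraries lay above all 24 h libraries in each genotype. Pou2af1 rose 1.79-fold from 24 h to 48 h in control cells (0.83 ± 0.09, adjusted p = 0.000522) and 2.00-fold in B-CKO cells (1.00 ± 0.05, adjusted p = 1.5e-05). The first step passed in B-CKO cells (-0.61 ± 0.12, adjusted p = 0.0042) and not in control cells (-0.21 ± 0.15, adjusted p = 0.297), and the difference between these 2 changes was -0.40 ± 0.21 with an unadjusted p of 0.0838. Without control 0 h replicate 3 the control change also passed (-0.37, adjusted p = 0.0159).

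**Figure D1:**
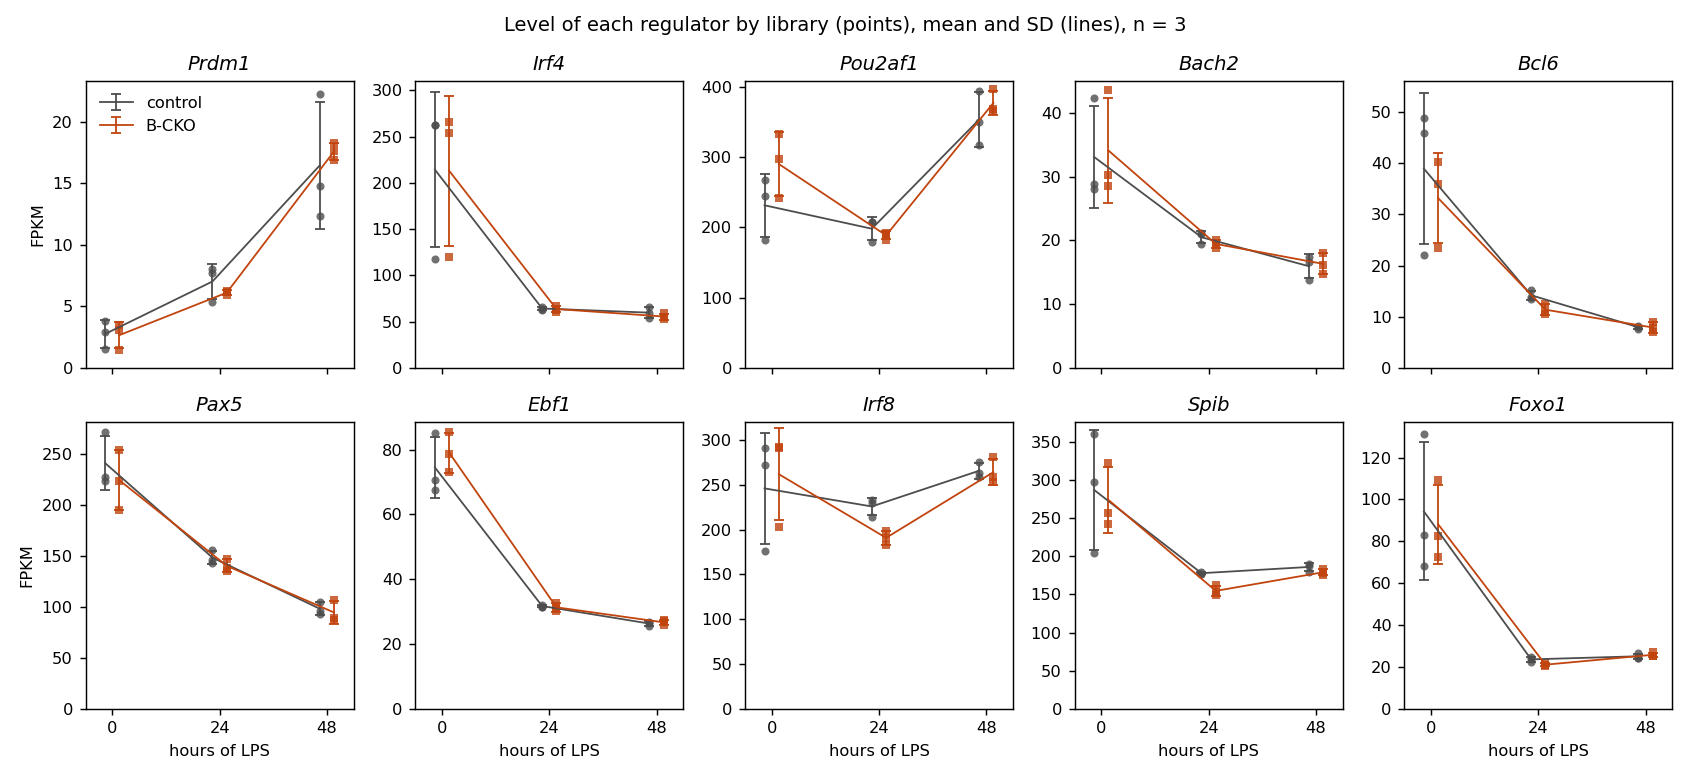
Level of the 10 regulators in FPKM (linear axes from 0) against hours of LPS, with control libraries as grey circles, B-CKO libraries as red squares, and lines through the group means with SD (n = 3). Prdm1 rises at both steps, Bach2, Bcl6, Pax5 and Ebf1 fall at both, and the Irf4 libraries at 0 h are more widely spread than those with LPS.

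Bach2 and Bcl6, the repressors of Prdm1, fell at both steps. Bach2 in control cells was 28.8, 28.1 and 42.4 FPKM at 0 h, 20.9, 19.4 and 21.1 FPKM at 24 h, and 13.9, 17.4 and 16.6 FPKM at 48 h. In B-CKO cells it was 30.2, 28.6 and 43.5 FPKM, then 19.4, 18.8 and 20.1 FPKM, then 16.2, 18.03 and 14.8 FPKM. Each later time lay wholly below the one before. Bach2 fell by 38.1% by 24 h in control cells (log2 change -0.64 ± 0.16, adjusted p = 0.0144) and by 43.0% in B-CKO cells (-0.76 ± 0.16, adjusted p = 0.00584), then by 22.2% (-0.35 ± 0.08, adjusted p = 0.0136) and 16.1% (-0.24 ± 0.07, adjusted p = 0.0306). The first control call was lost without control 24 h replicate 2 (adjusted p = 0.0541), and the second without control 24 h replicate 1 or 3 (adjusted p = 0.0521 and 0.0535). In B-CKO cells the step from 24 h to 48 h was the least firm, since it was lost with the replicate number as a block (adjusted p = 0.0745), with median ratio scaling (adjusted p = 0.0521) and without any of 5 of the 6 libraries (adjusted p = 0.0579 to 0.101).

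Bcl6, the zinc finger repressor that also drives the germinal centre state, fell further. Its control values were 46.0, 48.9 and 21.97 FPKM at 0 h, 15.2, 13.8 and 13.5 FPKM at 24 h, and 7.61, 8.09 and 8.06 FPKM at 48 h. The B-CKO values were 35.9, 40.3 and 23.4 FPKM, then 12.5, 10.6 and 10.96 FPKM, then 6.95, 7.76 and 8.91 FPKM. Number 3 was the lowest library at 0 h in both genotypes and still exceeded every library at 24 h. The mean was 2.75-fold lower at 24 h than at 0 h in control cells (-1.32 ± 0.30, adjusted p = 0.0092) and 2.92-fold lower in B-CKO cells (-1.44 ± 0.20, adjusted p = 0.000939). A further fall followed by 48 h, of 1.79-fold in control cells (-0.77 ± 0.06, adjusted p = 0.000116) and 1.44-fold in B-CKO cells (-0.48 ± 0.10, adjusted p = 0.0069).

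The sequences before the starts of these genes are given because an internal start of Bach2 and the second annotated start of Bcl6 each hold an ETS-IRF composite element (GGAANNGAA, in capitals), the kind of site at which PU.1 or SPIB binds together with IRF4 or IRF8. They lie at chr4:32417185-32417434 on the plus strand (Bach2, element at -16 to -8 on the minus strand) and at chr16:23981284-23981533 on the minus strand (Bcl6, element at -28 to -20), by RefSeq on GRCm38.p6.
Bach2: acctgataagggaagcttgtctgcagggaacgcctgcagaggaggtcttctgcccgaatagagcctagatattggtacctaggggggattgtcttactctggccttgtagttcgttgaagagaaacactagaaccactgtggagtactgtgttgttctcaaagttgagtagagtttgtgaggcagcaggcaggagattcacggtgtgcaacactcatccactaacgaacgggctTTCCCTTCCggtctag
Bcl6, second start: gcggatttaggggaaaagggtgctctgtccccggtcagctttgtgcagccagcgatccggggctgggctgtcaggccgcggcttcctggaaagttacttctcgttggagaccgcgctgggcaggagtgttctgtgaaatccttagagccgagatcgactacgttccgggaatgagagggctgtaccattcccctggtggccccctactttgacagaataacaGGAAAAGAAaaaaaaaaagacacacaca
The same letters stood in 7.32% of all windows. No window of the 10 genes held the octamer ATTTGCAT, the NF-kB letters GGGANTTCC, the ETS letters GAGGAAGT or the BCL6 letters TTCCTAGAA, which were found in 1.46%, 2.05%, 3.18% and 0.387% of all windows.

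Pax5 and Ebf1, which commit cells to the B lineage and keep them there, also fell at both steps. Pax5 in control cells was 227, 224 and 272 FPKM at 0 h, 156, 143 and 146 FPKM at 24 h, and 96.1, 105 and 93.2 FPKM at 48 h. B-CKO cells held 223, 195 and 254 FPKM, then 147, 139 and 135 FPKM, then 89.2, 107 and 87.0 FPKM. The groups of successive times did not overlap, and Pax5 remained among the 4 most abundant regulators at every time. The falls were 38.5% and 33.8% in control cells (log2 changes -0.69 ± 0.09 and -0.59 ± 0.05, adjusted p = 0.000756 and 0.000242), and 37.4% and 32.6% in B-CKO cells (-0.67 ± 0.10 and -0.57 ± 0.08, adjusted p = 0.0014 and 0.00136). Pax5 calls held without any single library.

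Ebf1 was 70.8, 67.7 and 85.2 FPKM at 0 h, 31.6, 31.4 and 32.2 FPKM at 24 h, and 25.5, 26.9 and 26.5 FPKM at 48 h in control cells. The B-CKO values were 73.2, 78.7 and 85.5 FPKM, then 32.8, 30.2 and 31.1 FPKM, then 27.3, 27.0 and 25.7 FPKM. Most of its change lay in the first day. Ebf1 was 2.35-fold lower at 24 h than at 0 h in control cells (-1.20 ± 0.09, adjusted p = 8.7e-05) and 2.52-fold lower in B-CKO cells (-1.31 ± 0.07, adjusted p = 1.6e-05), and then fell by 17.1% (-0.26 ± 0.03, adjusted p = 0.000857) and 14.8% (-0.22 ± 0.04, adjusted p = 0.00555).

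The second annotated start of Ebf1 (chr11:44619978-44620227, plus strand, GRCm38.p6) is shown because it alone among the windows of the 10 genes held the core letters of a PRDM1 element (AGNGAAAGT, in capitals, at -171 to -163 on the minus strand).
Ebf1, second start: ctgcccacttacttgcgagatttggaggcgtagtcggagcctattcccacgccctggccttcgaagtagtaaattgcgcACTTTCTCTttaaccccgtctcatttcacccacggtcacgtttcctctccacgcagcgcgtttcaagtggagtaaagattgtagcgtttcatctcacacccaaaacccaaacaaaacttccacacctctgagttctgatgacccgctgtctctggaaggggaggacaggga
These letters stood in 1.20% of all windows. The window before the first start of Ebf1 held an IRF element (GAAANNGAA) at -154 to -146, found in 7.44% of windows, and that of Foxo1 held an EBF element (TCCCNNGGG) at -92 to -83, found in 7.93%.

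Irf8 and Spib, a counterpart and a partner of Irf4 in B cells, did not keep falling after 24 h. IRF8 opposes IRF4 in the choice of B cell fate, and SPIB is an ETS factor that supports B cell receptor signalling and is repressed by BLIMP1. Irf8 in control cells was 272, 291 and 176 FPKM at 0 h, 230, 215 and 233 FPKM at 24 h, and 275, 258 and 264 FPKM at 48 h. In B-CKO cells it was 292, 291 and 203 FPKM, then 199, 183 and 191 FPKM, then 259, 254 and 281 FPKM. The control libraries of 0 h and 24 h overlapped (-0.09 ± 0.19, adjusted p = 0.707), and those of 48 h all lay above those of 24 h. Irf8 rose from 24 h to 48 h by 17.7% in control cells (0.23 ± 0.04, adjusted p = 0.005) and by 38.4% in B-CKO cells (0.47 ± 0.05, adjusted p = 0.000424). It fell by 27.1% over the first step in B-CKO cells (-0.44 ± 0.15, adjusted p = 0.0418), a call that held only without B-CKO 0 h replicate 3 when single libraries were left out (adjusted p = 0.0839 to 0.130 without each of the other 5). In control cells the first step passed without control 0 h replicate 3 (-0.32, adjusted p = 0.00636).

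Spib was the most abundant of the 10 in control cells at 0 h, with 360, 297 and 204 FPKM, and held 177, 177 and 180 FPKM at 24 h and 190.5, 188 and 180 FPKM at 48 h. B-CKO cells had 323, 257 and 242 FPKM, then 162, 153 and 149 FPKM, then 176, 178 and 183 FPKM. Every library at 0 h exceeded every LPS library of its genotype. Spib fell by 38.0% by 24 h in control cells (-0.65 ± 0.20, adjusted p = 0.0294) and by 43.5% in B-CKO cells (-0.81 ± 0.11, adjusted p = 0.000921). The control call was lost without any library other than control 0 h replicate 3 (adjusted p = 0.0530 to 0.0957). Spib then rose in B-CKO cells (0.21 ± 0.04, adjusted p = 0.00532), while in control cells the 0.06 ± 0.03 did not pass (adjusted p = 0.154) except with median ratio scaling (0.12, adjusted p = 0.0204).

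Foxo1 had the largest fall of the 10 over the first step, in both genotypes. Its control values were 68.4, 83.1 and 131 FPKM at 0 h, 24.7, 22.2 and 23.9 FPKM at 24 h, and 24.4, 24.2 and 26.6 FPKM at 48 h. In B-CKO cells it was 72.7, 82.6 and 109 FPKM, then 21.1, 21.7 and 20.5 FPKM, then 25.1, 27.0 and 25.2 FPKM. Foxo1 was 3.995-fold lower at 24 h than at 0 h in control cells (-1.90 ± 0.23, adjusted p = 0.000595) and 4.18-fold lower in B-CKO cells (-1.99 ± 0.14, adjusted p = 5e-05). From 24 h to 48 h it rose by 22.4% in B-CKO cells (0.28 ± 0.04, adjusted p = 0.002), and the control libraries overlapped (0.08 ± 0.05, adjusted p = 0.262).

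Counted together, 1 regulator rose (Prdm1) and 7 fell by 24 h in control cells, against a background of 26.7% of 15531 genes higher and 30.7% lower, and the median log2 change of the 10 was -0.67 against -0.02 over all genes. In B-CKO cells 1 rose and 9 fell (27.5% and 32.3% of 15551 genes). From 24 h to 48 h, 3 rose and 4 fell in control cells (20.1% and 24.8% of 15178 genes), and 5 rose and 5 fell in B-CKO cells (21.7% and 24% of 15253 genes), with medians of -0.02 and 0.01. Comparisons of successive steps share the 24 h libraries. A single fit of all 18 libraries, which shares the wider spread of 0 h, lost Irf8 and Bach2 in control cells (adjusted p = 0.334 and 0.127) and Spib, Irf4, Foxo1, Bcl6 and Bach2 in B-CKO cells (adjusted p = 0.157 to 0.723) from the second step. Since all values are from bulk RNA, fewer cells that express a gene and less RNA per cell cannot be told apart.

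**Figure D2:**
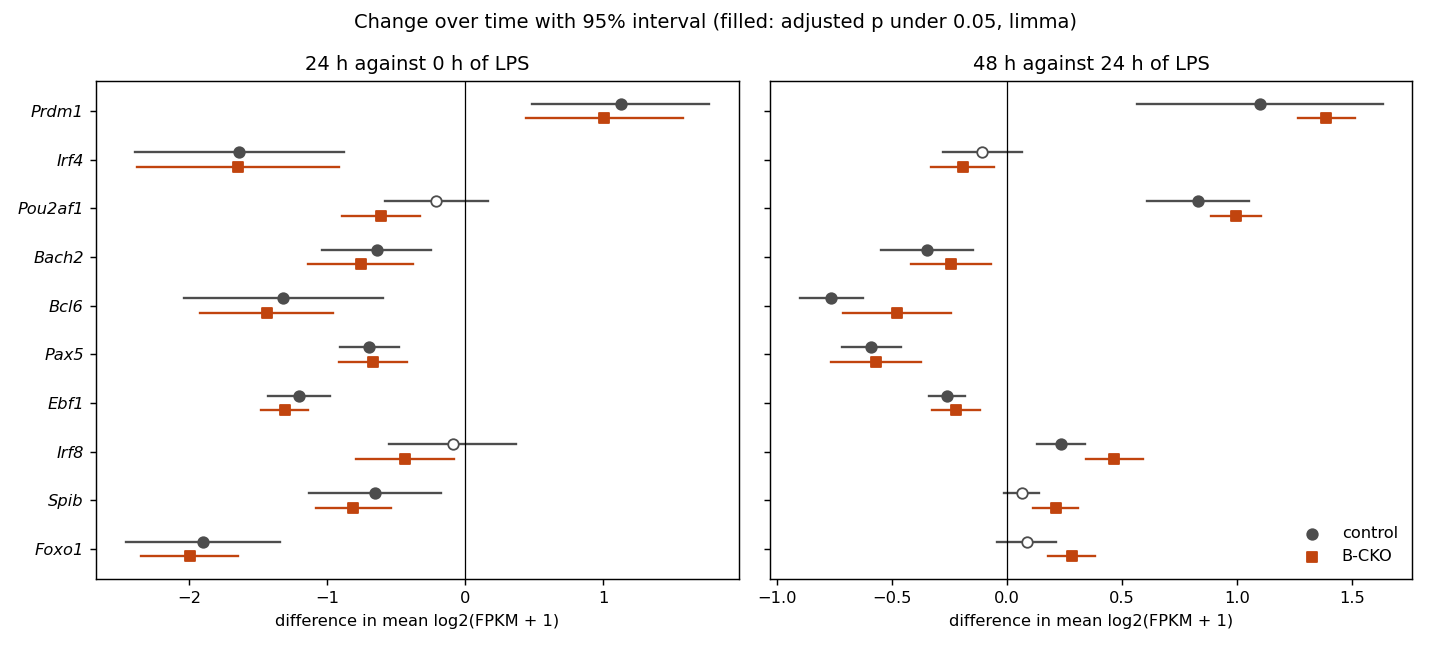
Difference in mean log2(FPKM + 1) for 24 h against 0 h (left) and 48 h against 24 h (right) in control (grey circles) and B-CKO cells (red squares), with 95% intervals and filled symbols where the limma adjusted p was under 0.05. The scales of the panels differ, and Prdm1 is alone on the positive side of the left panel, at 1.13 and 1.01.

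The order of levels changed with LPS. FPKM are per length and can be compared between genes. In control cells at 0 h Spib, Irf8, Pax5, Pou2af1 and Irf4 had means of 287, 246, 241, 231 and 214 FPKM and each overlapped the next, followed by Foxo1 at 94.3, Ebf1 at 74.5, Bcl6 at 39.0, Bach2 at 33.1 and Prdm1 at 2.74 FPKM. By 48 h Pou2af1 led at 354 FPKM, then Irf8 at 266, Spib at 186, Pax5 at 98.1 and Irf4 at 59.6 FPKM, each pair of neighbours without overlap. Ebf1 and Foxo1 (26.3 and 25.1 FPKM) overlapped, as did Prdm1 and Bach2 (16.4 and 15.9 FPKM), and Bcl6 came last at 7.92 FPKM. The B-CKO order at 48 h was the same, from Pou2af1 at 377 FPKM to Bcl6 at 7.87 FPKM, with overlaps at the same 2 pairs.

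Ratios taken within a library describe the balance of opposing regulators without a reference to other libraries. Prdm1 over Bach2 was 0.0539 to 0.103 in control and 0.0466 to 0.120 in B-CKO libraries at 0 h, 0.275 to 0.380 and 0.311 to 0.317 at 24 h, and 0.711 to 1.34 and 1.01 to 1.19 at 48 h. Prdm1 over Bcl6 went from 0.0337 to 0.173 in control and 0.0393 to 0.133 in B-CKO libraries, to 1.53 to 2.76 and 1.97 to 2.43. All 6 libraries at 48 h therefore held more Prdm1 than Bcl6, and 5 of 6 held more Prdm1 than Bach2, the exception being control replicate 2. Prdm1 over Pax5 stayed below 1 throughout and reached 0.118 to 0.239 in control and 0.170 to 0.202 in B-CKO libraries at 48 h. Irf4 over Irf8 moved the other way, from 0.434 to 1.49 and 0.409 to 1.31 at 0 h to 0.208 to 0.250 and 0.187 to 0.232 at 48 h. The genotypes overlapped in each of these 4 ratios at 0 h and 48 h. At 24 h they did not for Irf4 over Irf8, which was 0.272 to 0.309 in control and 0.315 to 0.367 in B-CKO libraries, a difference that was not tested.

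**Figure D3:**
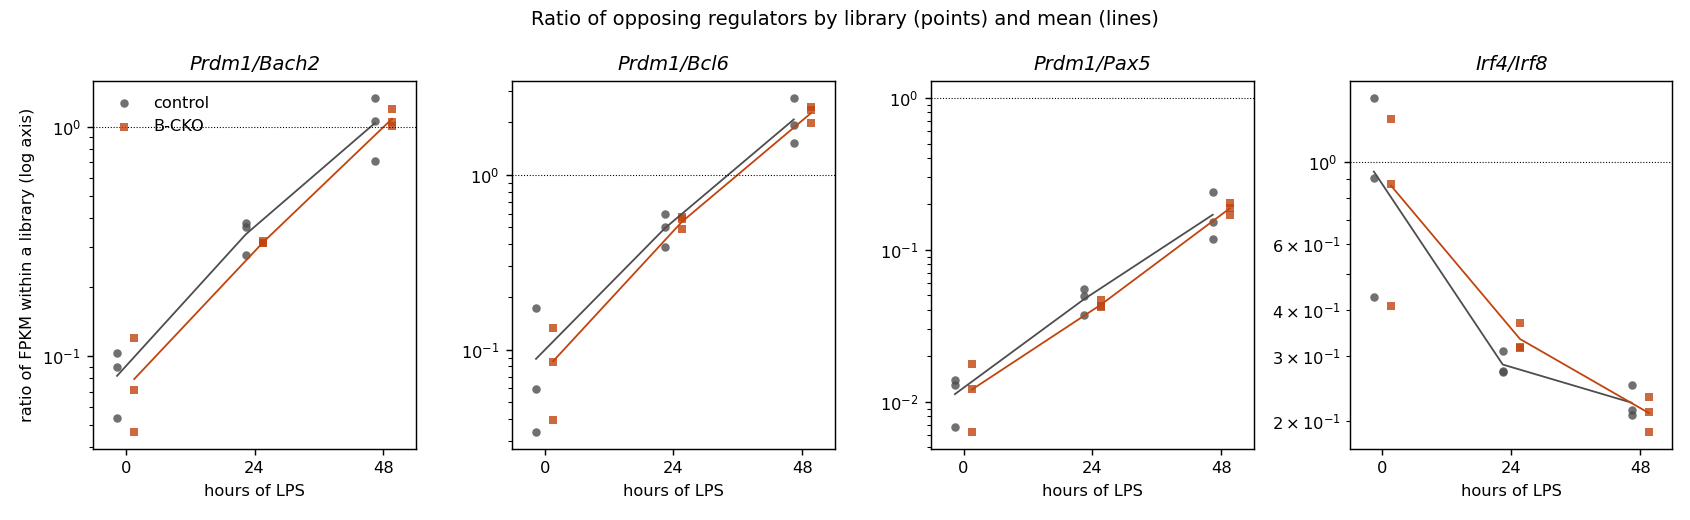
Ratio of FPKM within each library on a log axis against hours of LPS for 4 pairs of regulators, with control libraries as grey circles, B-CKO libraries as red squares and lines through the means (dotted line at 1). Prdm1 passes Bcl6 in all libraries by 48 h and stays under Pax5, and Irf4 over Irf8 falls.

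The comparison of genotypes asked whether any of the 10 regulators depended on Zbtb24. None passed the test at any time. At 0 h, 0 of 10 were called (background 0% of 15641 genes, with 313 at an unadjusted p under 0.05), 0 of 10 had an unadjusted p under 0.05, and for none did the groups separate (background 1.94% with all B-CKO below all control libraries and 1.92% above). The log2 differences ran from -0.18 for Bcl6 to 0.33 for Pou2af1, and the 95% intervals were wide, with -1.04 to 1.03 for Irf4. Same-numbered libraries of the genotypes moved together before LPS. In a fit blocked on the number the interval for Irf4 was -0.12 to 0.11, and 0 of 10 regulators and 0 of all genes passed the adjusted test. Pou2af1, Bach2, Ebf1 and Irf8 were higher in B-CKO cells in 3 of 3 same-numbered pairs and Pax5 was lower in 3 of 3. Irf8 was nearly equal in number 2, and Ebf1 in number 3 (85.2 and 85.5 FPKM). No share over all genes is given for these signs. In that fit Pou2af1 was the single regulator with an unadjusted p under 0.05 (0.33 ± 0.08, 95% interval 0.13 to 0.54, adjusted p = 0.803, background 5.7% of genes). With LPS the intervals were narrower. At 48 h, 0 of 10 were called (background 0.046% of 15210 genes), differences lay between -0.10 for Irf4 and 0.13 for Prdm1, and no groups separated (background 6.24% below and 4.89% above). The 95% interval for Prdm1 at 48 h was -0.31 to 0.57, for Irf4 -0.29 to 0.09, for Bach2 -0.21 to 0.27 and for Bcl6 -0.23 to 0.20.

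At 24 h the 10 differences were all negative, from -0.01 for Irf4 to -0.30 for Bcl6, with a median of -0.12 against -0.00 over all genes, and Irf4 turned positive with median ratio scaling (0.00045). By the test of all 15104 genes 0 of 10 were called (background 0.0993%), and 4 had an unadjusted p under 0.05 (background 16.3%). In these 4, Bcl6, Irf8, Spib and Foxo1, each B-CKO library lay below each control library (background 11.7% below and 8.43% above). Irf8 was 183 to 199 FPKM in B-CKO against 215 to 233 FPKM in control cells, a difference of 15.5% (-0.24 ± 0.04, adjusted p = 0.0904). Spib was 13.04% lower (-0.20 ± 0.03, adjusted p = 0.0827), Bcl6 19.9% lower (-0.30 ± 0.07, adjusted p = 0.134) and Foxo1 10.7% lower (-0.16 ± 0.04, adjusted p = 0.168). The exact permutation test gave p = 0.1 for each of the 4, two-sided, the smallest that 3 against 3 libraries allow. When genes with a mean under 1 FPKM were left out before the fit, Spib (adjusted p = 0.0200), Irf8 (0.0193) and Bcl6 (0.0391) passed. In all, 388 genes passed with this filter, which changes the variance estimates of the fit as well as the list adjusted over.

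**Figure D4:**
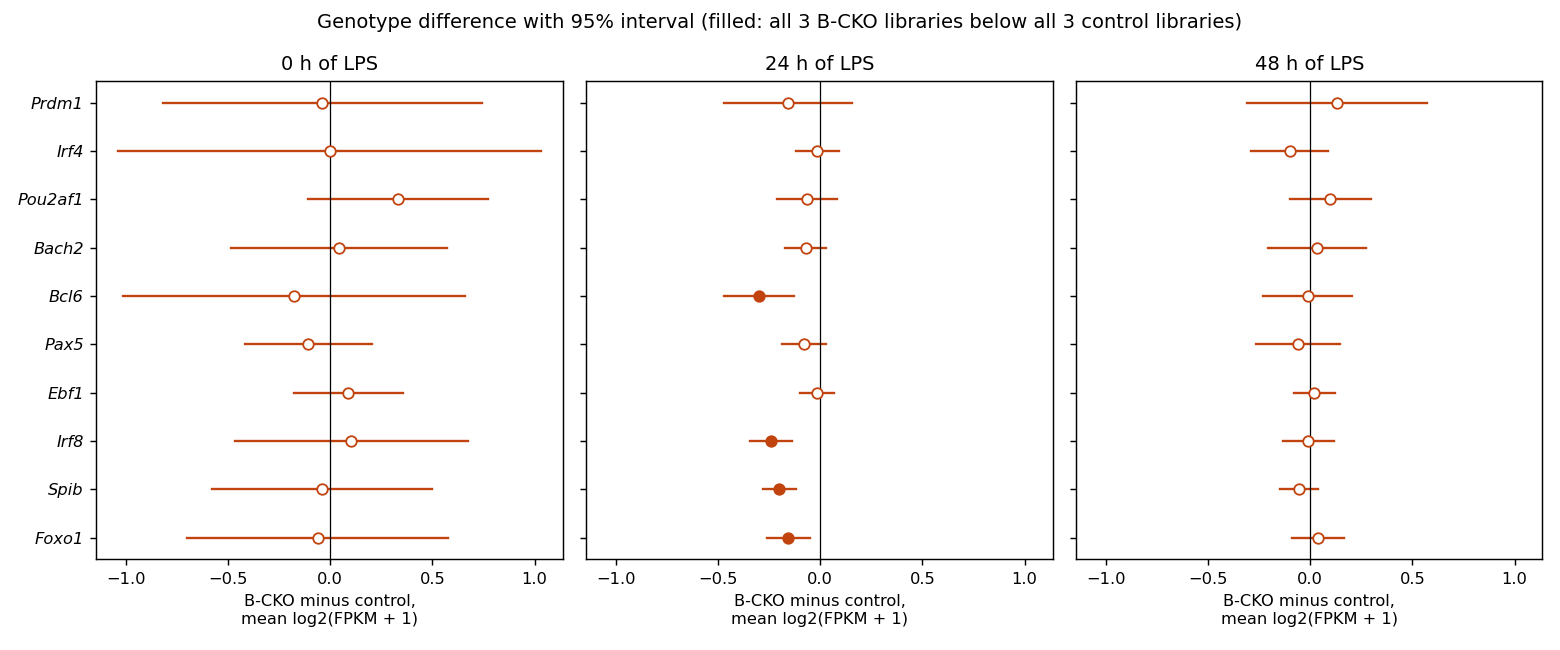
B-CKO minus control difference in mean log2(FPKM + 1) for each regulator at 0 h, 24 h and 48 h with 95% intervals, filled where all 3 B-CKO libraries lay below all 3 control libraries. The filled symbols are Bcl6, Irf8, Spib and Foxo1 at 24 h, and every interval at 0 h and 48 h includes 0.

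The change over time was compared between genotypes as an interaction. Between 0 h and 24 h, 0 of 10 regulators were called (background 0% of 16182 genes), and 0 had an unadjusted p under 0.05. Between 24 h and 48 h, 0 of 10 were called (background 0% of 15844 genes) and 4 had an unadjusted p under 0.05 (background 7.31%). These were Irf8 (0.23 ± 0.07), Spib (0.15 ± 0.05), Foxo1 (0.19 ± 0.07) and Bcl6 (0.29 ± 0.12), with adjusted p of 0.563 to 0.652. They are also the 4 genes whose 24 h groups separated, and both comparisons rest on the same 24 h libraries. For Prdm1 the second step differed by 0.29 ± 0.26 (95% interval -0.28 to 0.85).

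The spread among libraries without LPS had a shared pattern. The coefficient of variation of Irf4 was 39.0% in control and 38.2% in B-CKO cells at 0 h, and 2.93% and 5.46% at 24 h. Number 1 was the lowest library in both genotypes for Prdm1, Irf4 and Foxo1, number 2 for Bach2 and Pax5, and number 3 for Bcl6, Irf8, Spib and Pou2af1. Irf4 was 118 and 119 FPKM in the number 1 libraries and between 254 and 266 FPKM in the other 4. Across genes, deviations of same-numbered control and B-CKO libraries correlated at 0.854, 0.468 and 0.789 at 0 h.

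**Figure D5:**
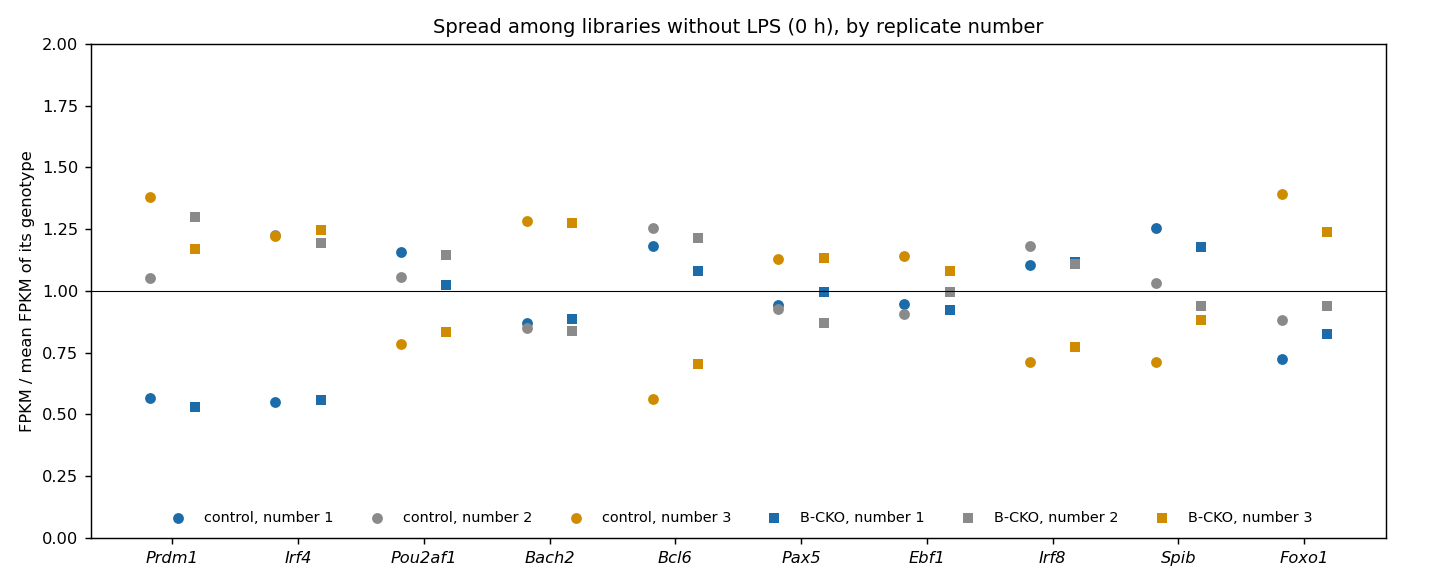
FPKM of each regulator at 0 h divided by the mean of its genotype, with control libraries as circles, B-CKO libraries as squares, and replicate number 1 in blue, 2 in grey and 3 in orange. Same-numbered libraries of the 2 genotypes lie close together, as for Irf4, where number 1 is low in both.

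Genes that the network acts on were followed by lists, to be read against 26.7% of all genes higher and 30.7% lower by 24 h in control cells, and 20.1% and 24.8% from 24 h to 48 h. Of 13 PC program genes, 4 rose and 4 fell by 24 h in control cells (4 and 6 in B-CKO cells), and from 24 h to 48 h 12 rose and 1 fell (10 and 1 in B-CKO cells), with a median of 0.92 against -0.00 over all genes. Xbp1, which drives the secretory expansion of PCs, rose from 56.3 ± 5.15 FPKM at 24 h to 122 ± 29.4 FPKM at 48 h in control cells (SD, n = 3). Jchain, the joining chain of polymeric antibodies, fell from 89.5 ± 16.6 to 17.8 ± 3.96 FPKM and came back to 61.7 ± 22.1 FPKM. Pim2, a kinase of cell survival, rose from 20.5 ± 3.76 to 97.3 ± 8.63 FPKM by 24 h, and Derl3, a factor of protein disposal at the endoplasmic reticulum, from 7.21 ± 0.57 to 15.6 ± 2.65 FPKM. Sdc1, the PC surface marker CD138, was 5.69 ± 0.37 FPKM at 0 h and 2.84 ± 0.54 FPKM at 48 h in control cells, and 3.69 ± 0.72 and 1.81 ± 0.26 FPKM in B-CKO cells. The genotype groups of Sdc1 did not overlap at 0 h and 48 h (log2 differences -0.52 ± 0.16 and -0.45 ± 0.13, adjusted p = 1 and 0.428) and overlapped at 24 h. Pim2 went the other way at 24 h, with 87.8 to 104.6 FPKM in control and 121 to 154.5 FPKM in B-CKO libraries. At 48 h it was 123.9 to 142.5 FPKM in control and 181 to 212 FPKM in B-CKO libraries. Fkbp11 was also higher in B-CKO libraries at 0 h (3.30 to 4.85 against 1.27 to 2.92 FPKM). None of the 13 genes was called between genotypes at any time, and 2, 5 and 2 had an unadjusted p under 0.05 at 0 h, 24 h and 48 h (background 2%, 16.3% and 7.71% of all genes). The median log2 difference of the 13 at 24 h was -0.12.

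Of 12 B cell identity genes that PAX5 activates, 9 fell and 0 rose by 24 h in control cells (10 and 0 in B-CKO cells), with a median of -1.08. Fcer2a (CD23) fell by 2.09 on the log2 scale, Cr2 (CD21) by 2.01, Siglecg by 1.99 and Ciita, the activator of MHC class II genes, by 1.90, whereas Ms4a1 (CD20) kept 517 ± 32.7 FPKM against 539 ± 88.5 FPKM at 0 h (adjusted p = 0.774). From 24 h to 48 h 6 rose and 3 fell, with a median of 0.18, although Pax5 itself fell again. Between genotypes 1, 8 and 4 of the 12 had an unadjusted p under 0.05 at 0 h, 24 h and 48 h (background 2%, 16.3% and 7.71% of all genes). These shares, and those given for the other lists, count every gene above 0 FPKM in the fit, low ones included. No share among genes of like level was computed. The median log2 difference of the 12 at 24 h was -0.19 against -0.00 over all genes. Of 8 lymphocyte genes that depend on FOXO1, 8 fell by 24 h in each genotype, with medians of -1.98 and -2.34. S1pr1, the receptor for exit from lymphoid tissue, went from 179 ± 34.6 to 8.92 ± 0.59 FPKM in control cells, Klf2 from 838 ± 88.7 to 72.3 ± 4.87 FPKM, Ccr7 fell by 2.99 and Sesn1 by 2.23 on the log2 scale. None of the 8 was called between genotypes. An unadjusted p under 0.05 was found for 1, 5 and 1 of them at 0 h, 24 h and 48 h (background 2%, 16.3% and 7.71%). The median log2 difference of the 8 was -0.11 at 24 h.

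Of 12 partner proteins of the regulators, 2 rose and 6 fell by 24 h in control cells, and 2 and 7 in B-CKO cells. Batf, which pairs with JUN proteins and IRF4 on composite elements, rose from 11.5 ± 1.81 to 181 ± 6.44 FPKM. Junb fell from 931 ± 239 to 67.7 ± 2.74 FPKM, Mafk, a small MAF partner of BACH2, from 100.4 ± 30.4 to 19.3 ± 1.11 FPKM, and Pou2f1 (OCT1) by 1.13 on the log2 scale. Of the 7 other IRF genes, 2 rose and 2 fell by 24 h in control cells. Irf1 fell by 1.90 and Irf2 by 1.35, and Irf7 rose by 1.05 and Irf9 by 0.25 on the log2 scale, the last not in TPM (0.09, adjusted p = 0.178). In B-CKO cells 0 of the 7 rose and 3 fell, and the changes were 0.19 ± 0.09 for Irf7 (adjusted p = 0.115) and -0.16 ± 0.08 for Irf9 (adjusted p = 0.144). The Irf9 fall in B-CKO cells passed in TPM (-0.33, adjusted p = 0.0154), with median ratio scaling (-0.21, 0.0294) and without B-CKO 0 h replicate 3 (-0.24, 0.0215). The change of Irf7 differed between genotypes by -0.86 ± 0.15, which did not pass the test (adjusted p = 0.583). No gene of the partner or IRF lists was called between genotypes, and 6 of 12 and 4 of 7 had an unadjusted p under 0.05 at 24 h (background 16.3%), against 0 and 1 at 0 h and 2 and 0 at 48 h. Irf7 had the largest genotype difference of its list at 24 h (-0.55 ± 0.06, adjusted p = 0.0554), with 43.1 to 48.6 FPKM in control and 28.9 to 32.9 FPKM in B-CKO libraries. It passed with a pseudocount of 0.1 (adjusted p = 0.0308), in TPM (0.0413) and when genes with a mean under 1 FPKM were left out (0.00271).

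Germinal centre and PC markers were read beside the network. The 5 germinal centre markers summed to 87.1 to 95.01 FPKM in control and 106 to 123 FPKM in B-CKO libraries at 48 h, while Bcl6, their regulator, was at its lowest. The 4 PC markers summed to 88.9 to 122 FPKM in control and 81.9 to 122 FPKM in B-CKO libraries at 0 h, 29.4 to 39.9 and 27.3 to 32.6 FPKM at 24 h, and 66.8 to 123 and 84.3 to 94.4 FPKM at 48 h. Control and B-CKO libraries overlapped at all 3 times. At 0 h and 48 h most of this sum was Jchain, and Tnfrsf17 (BCMA) stayed at or below 0.750 FPKM in all groups.

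For each regulator, the 2 genes nearest in profile among 9996 with a mean of at least 1 FPKM were found by the root mean square difference of centred log2(FPKM + 1) over the 18 libraries. Nearest to Prdm1 were Derl3 (0.24) and Foxm1 (0.26), the first also one of the PC program genes. Pou2af1 was nearest to Edem2 (0.13) and Snx25 (0.13), Irf4 to Zfp869 (0.14) and Tgoln1 (0.16), Bach2 to Slc9a8 (0.11) and Atg14 (0.11), and Bcl6 to Sipa1 (0.20) and Chst3 (0.21). Pax5 was nearest to Ercc6 (0.10) and Cdk12 (0.10), Ebf1 to Akap13 (0.08) and Arid4b (0.08), Irf8 to Hnrnph3 (0.12) and Smarcd2 (0.12), Spib to B3gat3 (0.07) and Rmc1 (0.08), and Foxo1 to Dgat1 (0.11) and Malt1 (0.11). No regulator was among the 2 nearest genes of another. The points share libraries and depth, and likeness of profile is a description of these 18 libraries.

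By RefSeq on GRCm38.p6 the genes lie at chr10:44437174-44528558 (Prdm1), chr13:30749233-30766981 (Irf4), chr9:51213690-51240079 (Pou2af1), chr4:32238413-32586109 (Bach2), chr16:23965050-23988866 (Bcl6), chr4:44524748-44710694 (Pax5), chr11:44618100-45008096 (Ebf1), chr8:120736358-120756694 (Irf8), chr7:44525995-44532087 (Spib) and chr3:52268337-52350109 (Foxo1). Exons of Bach2, Pax5, Bcl6 and Foxo1 are overlapped by genes on the opposite strand, which the expression table does not list, and whether the libraries keep the strand is not given in the sources used here, so reads of such neighbours could not be separated from those of the 4 genes.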

How the data were processed

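RNA-seq libraries of splenic B cells, 3 per genotype and time, were analysed from the gene table. The values are FPKM, which the authors obtained after mapping to mm10 (bowtie2) with RSEM and Cufflinks, and deposited rounded to 2 decimals. FPKM are scaled to transcript length and library size. BWA is also named in the submitters' processing notes, no versions are given in the sources used here, and the methods name another sequencer than the labels. Counts behind the values are not in the table, so that depth is known only relative to other libraries, from 14 genes whose low values were whole multiples of a step (within 8%). By this estimate, which has no error attached, a given FPKM rests on fewer fragments at 0 h. Of 16545 gene IDs, 16512 matched RefSeq symbols (GRCm38.p6).

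FPKM are not counts, so log2(FPKM + 1) was tested with limma 3.58.1 (R 4.3.3; lmFit, eBayes with trend) between 2 groups at a time, over all genes above 0 in any library of the fit. Interactions were contrasts of 4 groups. Benjamini-Hochberg adjusted p under 0.05 over all genes of a fit was called, and the fits were tested on simulated data. A log2 change refers to log2(FPKM + 1) and understates the change of low genes such as Prdm1. A mean ± value is given with its SE for log2 changes and with its SD for FPKM. Percentages and folds compare mean FPKM.

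All 10 regulators were named. From each gene list, up to 4 genes with the largest change between 0 h and 24 h among those called in control cells were named, with every list gene called between genotypes, except 1 gene that is not reported here. The regulators, lists and tests were chosen with earlier results of these data known. Xbp1, Ms4a1, Flt3, Tnfrsf17, Fkbp11, Creb3l2, Edem1 and the ratios were picked after their values were seen. Lists are given by counts and medians, without a set test. Motifs were searched on both strands of 300-base windows around annotated starts, 250 bases before and the rest after.

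Same-numbered libraries of the 2 genotypes deviated together at 0 h (0.854, 0.468 and 0.789), and so did those of B-CKO cells at 24 h and 48 h (0.126, 0.183 and 0.117). The pairing is inferred from the values, since no label explains the numbers. Alternatives were a pseudocount of 0.1, a mean of at least 1 FPKM, TPM, median ratio scaling, the replicate block, a single fit of 18 libraries, and leaving out libraries or replicate numbers. Figures were drawn with matplotlib 3.10.9 in Python 3.11.15.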

Additional observations from a re-analysis of the deposited data

How the results depend on the processing

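Of the results reported for the 10 regulators, 439 of their recomputed values with all libraries kept direction and side of the threshold, 10 lost the call, 4 gained it and 3 reversed. With libraries left out the counts were 530, 22, 3 and 45. None of the reversed values had passed the test. Irf4 turned to 0.0021 at 0 h and 0.00045 at 24 h between genotypes with median ratio scaling, and Ebf1 to -0.0029 at 48 h in TPM. The regulators called between 24 h and 48 h in B-CKO cells went from 10 to 5 in a single fit of 18 libraries, and those called between genotypes at 24 h from 0 to 3 when genes with a mean under 1 FPKM were left out. That filter was applied before the fit, so it changes the variance estimates as well as the list adjusted over. The cause of the shifts was not tested.

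Counts over all genes were less firm for genotype. At 0 h they went from 0 to 2 with the filter and 25 in the single fit. At 24 h they went from 15 to 46 with a pseudocount of 0.1, 388 with the filter, 5 with the replicate block and 8 in the single fit. At 48 h they went from 7 to 29 with the filter, 3 with the replicate block and 11 in the single fit. The interaction between 0 h and 24 h gave 2 in place of 0 in the single fit. With libraries left out, genotype counts were 0 to 1 at 0 h, 0 to 8 at 24 h and 0 to 6 at 48 h, and interaction counts 0 to 2 for the first step and 0 to 3 for the second.

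Genotype differences that changed sign with libraries left out ran over these ranges. At 0 h they were Spib -0.26 to 0.14, Irf8 -0.12 to 0.28, Irf4 -0.39 to 0.37, Foxo1 -0.26 to 0.20, Bcl6 -0.54 to 0.048, Bach2 -0.14 to 0.23 and Prdm1 -0.29 to 0.24. At 24 h they were Irf4 -0.056 to 0.019 and Ebf1 -0.053 to 0.0084. At 48 h they were Irf8 -0.059 to 0.032, Irf4 -0.22 to 0.012, Ebf1 -0.018 to 0.051, Foxo1 -0.017 to 0.096, Bcl6 -0.096 to 0.063, Bach2 -0.060 to 0.13 and Prdm1 -0.068 to 0.36. The control change by 24 h ran from -0.32 to 0.047 for Irf8 and from -0.18 to 0.063 for Ms4a1.

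The replicate block changed no other regulator call than that of Bach2 from 24 h to 48 h in B-CKO cells. Same-numbered libraries of the genotypes correlated at 0.104, 0.200 and 0.0910 at 24 h and at -0.037, 0.216 and 0.230 at 48 h, against means of -0.066 and -0.068 for unlike numbers. Not every pair exceeded 0.1, so that these libraries were not treated as paired, and whether they share a source is not known. Read counts behind the FPKM are unknown, which limits what can be said of Prdm1 at 0 h, the lowest regulator there.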
